A study of Mus musculus with 8 samples.

Results

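De novo lipogenesis is the synthesis of fatty acids from acetyl-CoA. The 10 genes described here encode its main enzymes, the transcription factors that drive them and a small protein of lipogenic tissues (*Thrsp*). They are *Srebf1*, *Mlxipl*, *Acly*, *Me1*, *Acaca*, *Acacb*, *Thrsp*, *Fasn*, *Elovl6* and *Scd1*. They were chosen by gene symbol, and all 10 were found among the 55385 gene identifiers of the table. Their RNA was measured by bulk RNA-seq in whole liver of male mice, 5 weeks old and fasted for 16 h. The livers came from 4 *Usp39*-HKO mice and 4 control mice, with a library for each mouse. *Usp39*-HKO mice are *Usp39* fl/fl mice, with *loxP* sites around exon 2, that carry Cre under the albumin promoter, which acts mainly in hepatocytes. Cells without active Cre keep the gene. The controls are labelled WT and are called control littermates by the study. The floxed and Cre mice had a C57BL/6J background. The labels do not say whether the controls carry the floxed alleles. The control mice are A468, A472, A473 and A475, and the *Usp39*-HKO mice are A469, A470, A471 and A474. The question for these genes is whether lipogenic gene expression differs in livers whose hepatocytes were targeted for deletion of *Usp39*, a spliceosome component.

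In the fed liver, insulin raises SREBP-1c, the product of *Srebf1*, and sugar metabolites activate ChREBP, the product of *Mlxipl*. Both proteins bind the promoters of lipogenic genes. ATP citrate lyase (*Acly*) cleaves citrate into acetyl-CoA, acetyl-CoA carboxylases (*Acaca*, *Acacb*) make malonyl-CoA from it, and fatty acid synthase (*Fasn*) builds palmitate with NADPH, part of which malic enzyme (*Me1*) supplies. *Elovl6* then elongates palmitate, and *Scd1* introduces a double bond. Fasting represses the pathway, so these livers were sampled when it is normally low.

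*Mlxipl* and *Srebf1* are each transcribed from more than a single start site, and counts per gene add their transcripts together. The bases before both RefSeq start sites (GRCm38.p6) of *Mlxipl* are shown because its RNA was called lower in *Usp39*-HKO livers and the counts do not say from which start it came. Each stretch holds the 250 bases before the start, on the plus strand. The *Mlxipl* starts lie 17001 bases apart, and the upstream start is known for the shorter ChREBP-β protein.
*Mlxipl*, upstream start, chr5:135089640-135089889: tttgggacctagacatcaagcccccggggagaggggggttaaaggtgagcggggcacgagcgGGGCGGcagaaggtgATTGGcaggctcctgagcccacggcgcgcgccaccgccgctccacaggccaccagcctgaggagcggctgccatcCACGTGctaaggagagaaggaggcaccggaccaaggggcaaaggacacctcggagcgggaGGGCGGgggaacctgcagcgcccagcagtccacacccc
*Mlxipl*, downstream start, chr5:135106641-135106890: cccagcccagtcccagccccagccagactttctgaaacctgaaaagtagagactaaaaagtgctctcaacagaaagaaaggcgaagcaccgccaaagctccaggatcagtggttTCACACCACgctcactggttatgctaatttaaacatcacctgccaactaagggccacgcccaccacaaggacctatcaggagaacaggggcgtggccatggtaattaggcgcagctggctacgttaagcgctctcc
Capitals mark matches, on either strand, to motifs that were searched by their letters in windows from 250 bases before to 50 bases after each start. The first was TCACNCCAC, a form of the sterol regulatory element bound by SREBP. The second was the E-box CACGTG. The others were the CCAAT box, searched by the letters of its name, and the GC box GGGCGG. The upstream *Mlxipl* window held an E-box 98 bases before the start, with a CCAAT box in the reverse orientation and GC boxes, and the downstream window held a sterol regulatory element 136 bases before the start. The RefSeq window of *Acaca* begins its transcript 65766 bases inside the gene as annotated by GENCODE, so the start at the 5′ end was not searched, and it held no match. That of *Acacb* likewise lies 18983 bases inside its gene. In all, 9 of the 10 genes matched a RefSeq window, and *Scd1* did not. Of their 13 windows, 1 held the sterol regulatory element, 1 the E-box, 8 a CCAAT box and 5 a GC box. Of all 32851 windows, 1.24%, 7.15%, 37.4% and 35.7% held these motifs. *Fasn* had 3 CCAAT boxes, at 90, 62 and 59 bases before its start, of which the last 2 overlap on opposite strands. Such matches are a description of the sequence and were not tested for binding.

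Levels are given as FPKM (counts scaled to exon length and to library total) divided by the TMM factor of the mouse, a scaling that sets the median gene close to equal between libraries. Total counts ranged from 8589636 to 10418450 per mouse, and the TMM factors of the controls (0.912 to 0.94) were smaller than those of the *Usp39*-HKO mice (1.01 to 1.19). *Usp39* was at 10.4 ± 0.70 (SD, n = 4) in controls and at 7.80 ± 0.68 (SD, n = 4) in *Usp39*-HKO livers, and its highest *Usp39*-HKO value was below its lowest control value. A gene entered edgeR's quasi-likelihood test if 4 or more of the 8 mice reached an FPKM of 0.5, which left 14340 genes, and every member passed this filter. Replicates are separate mice. The single-value test beside the levels is a two-sided exact permutation test over the 70 assignments of the mice, whose smallest p is 0.029.

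*Mlxipl* and, close to the threshold, *Acaca* were called lower in *Usp39*-HKO livers, and no member was called higher. Thus 2 of 10 members (20.0%) were called lower at an adjusted p under 0.05, against 11.6% of all genes tested. No member was called higher, against 10.9% of all genes, and in either direction 22.5% of all genes were called, a share close to that of the members. The median log2 fold change of the members was −0.35, against −0.0015 for all genes tested, and 7 of the 10 estimates were below 0. The study used a cutoff of p under 0.05 before adjustment together with a change beyond 0.5 in either direction on the log2 scale. At this cutoff 1 member passed (*Mlxipl*), against 21.7% of all genes. In 3 of the 10 members (*Mlxipl*, *Acly* and *Acacb*) every *Usp39*-HKO mouse was below every control mouse, against 24.8% of all genes whose genotypes did not overlap in either direction. The number called lower was 4 without *Usp39*-HKO mouse A469, 2 without control A472 and 1 without any other mouse, and the number past the study cutoff was 5 without A469 and 0 without A474. In bulk liver, fewer cells of a type and less RNA per cell cannot be told apart.

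**Figure D1:**
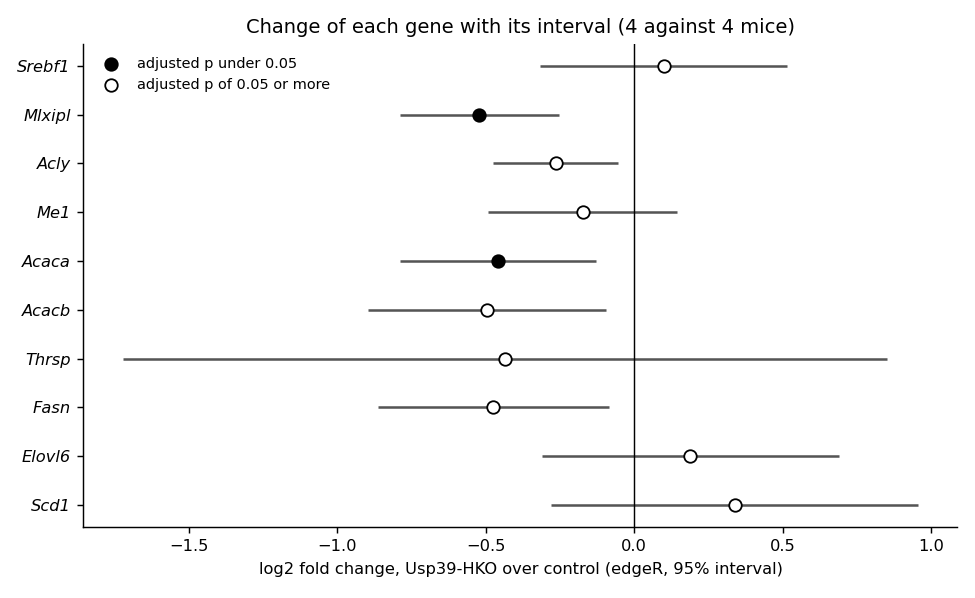
Log2 fold change of each of the 10 genes in *Usp39*-HKO over control livers (x axis, edgeR) with its 95% interval, for 4 against 4 mice; filled points have an adjusted p under 0.05. The intervals of *Mlxipl*, *Acly*, *Acaca*, *Acacb* and *Fasn* lie below 0, of which only *Mlxipl* and *Acaca* pass the adjustment, and that of *Thrsp* is the widest, from −1.72 to 0.85.

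These calls depended on the scale. On library totals without TMM scaling, the median of all genes tested moved up by 0.234 on the log2 scale, and 0 of 10 members were called lower or higher. In limma on log2(FPKM + 1) or log2(FPKM + 0.1) of the deposited FPKM, 0 members were called as well. The median of the members was then between −0.13 and −0.11, below that of all genes (0.172 to 0.234) in each of these 3 fits. Among all calls, 48.4% were higher in *Usp39*-HKO livers with TMM scaling and 82.6% to 83.3% without it. Changes of the members are therefore relative to the median gene.

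**Figure D2:**
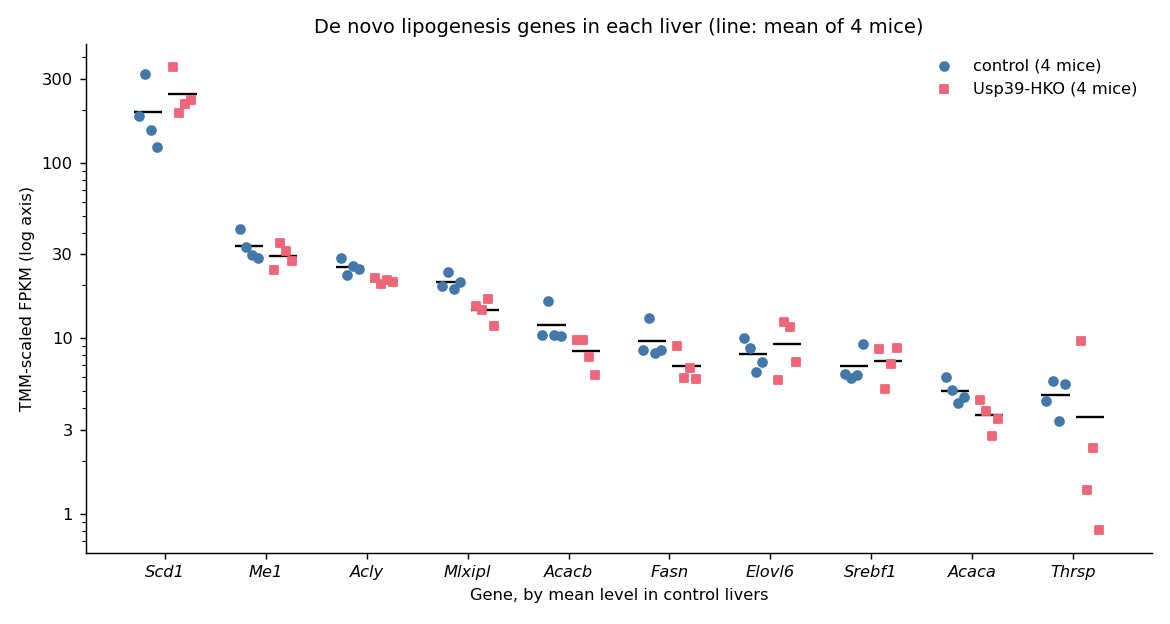
TMM-scaled FPKM (log y axis) of each of the 10 genes in 4 control livers (circles) and 4 *Usp39*-HKO livers (squares), with horizontal lines at the means and genes ordered by their mean in controls. The genotypes are separated in *Mlxipl*, *Acly* and *Acacb*, and the *Usp39*-HKO values of *Thrsp* run from 0.81 to 9.61.

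Of the transcription factors, *Mlxipl* (chromosome 5, from 135089890 to 135138382, plus strand, GRCm38) encodes ChREBP, the factor that couples sugar supply to lipogenesis. Its TMM-scaled FPKM was 19.9, 23.8, 19.1 and 20.8 in control mice A468, A472, A473 and A475, and 15.2, 14.6, 16.7 and 11.7 in *Usp39*-HKO mice A469, A470, A471 and A474. The highest *Usp39*-HKO mouse, A471, was thus below the lowest control, A473. The means were 20.9 ± 2.05 and 14.6 ± 2.10 (SD, n = 4 each), and the log2 fold change was −0.52 (SE 0.12, 95% interval −0.79 to −0.26, adjusted p = 0.0113 from edgeR). The exact permutation p was 0.029. With each mouse left out in turn, the adjusted p stayed between 0.0119 and 0.0343. *Mlxipl* was the only member to keep its call in all 8 of these fits. On the deposited FPKM, which carries no TMM scaling, the genotypes overlapped, at 19.3 ± 1.99 and 15.7 ± 1.60 (SD, n = 4 each, exact permutation p = 0.057). An antisense gene, *Gm43500*, overlaps 4.24% of the *Mlxipl* exon bases, and it had at most 5 counts in a mouse.

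*Srebf1* (chromosome 11, from 60199089 to 60222581, minus strand) encodes SREBP-1a and SREBP-1c, of which SREBP-1c is the main form in liver. Its level was 6.23, 5.98, 6.18 and 9.31 in the controls in the same order, and 8.68, 5.15, 7.12 and 8.78 in the *Usp39*-HKO mice. The lowest mouse was a *Usp39*-HKO mouse, A470, and the highest a control, A475, so the genotypes overlapped. The log2 fold change was 0.10 (SE 0.19, 95% interval −0.32 to 0.52), which allows a change between 0.803-fold and 1.43-fold (adjusted p = 0.752 from edgeR). Its 3 RefSeq windows mark separate starts, and the forms of SREBP-1 were not separated by the counts.

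Among the enzymes that supply acetyl-CoA and NADPH, *Acly* (chromosome 11, from 100476353 to 100528000, minus strand) varied least between mice of a genotype. Its level was 28.5, 23.0, 25.7 and 24.9 in controls, and 22.2, 20.4, 21.6 and 20.8 in *Usp39*-HKO mice. The ranges did not overlap, but the highest *Usp39*-HKO mouse, A469, was near the lowest control, A472. The means were 25.5 ± 2.31 and 21.2 ± 0.79 (SD, n = 4 each), the exact permutation p was 0.029, and the log2 fold change was −0.27 (SE 0.096). Over all genes this gave an adjusted p of 0.0692 with edgeR, so *Acly* was not called. It passed without control mouse A472 (adjusted p = 0.0408) and in DESeq2 (adjusted p = 0.0455). Its within-genotype SD was 0.099 on the log2 scale, at percentile 5.9 of the genes tested. On library totals without scaling its log2 fold change was −0.03.

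*Me1* (chromosome 9, from 86581371 to 86695953, minus strand), the cytosolic malic enzyme, was at 41.7, 33.0, 29.9 and 28.8 in controls and at 24.4, 35.1, 31.3 and 27.5 in *Usp39*-HKO mice. The ranges overlapped, with control A468 highest and *Usp39*-HKO mouse A469 lowest. The log2 fold change was −0.17 (SE 0.15, 95% interval −0.49 to 0.15, adjusted p = 0.43 from edgeR), and it was above 0 without TMM scaling (0.066). Of its 100-base words, 14.6% also occur in other genes, most often in the pseudogene *Gm7049*, which had at most 4 counts in a mouse.

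The carboxylases make malonyl-CoA, the building unit of fatty acid synthase. *Acaca* (chromosome 11, from 84129672 to 84401651, plus strand), which encodes the cytosolic carboxylase ACC1, was at 6.03, 5.05, 4.28 and 4.65 in controls and at 4.47, 3.86, 2.78 and 3.45 in *Usp39*-HKO mice. Only A469 among the *Usp39*-HKO mice reached the range of the controls, above A473. The means were 5.00 ± 0.75 and 3.64 ± 0.71 (SD, n = 4 each, exact permutation p = 0.057), and the log2 fold change was −0.46 (SE 0.15, adjusted p = 0.0476 from edgeR), close to the threshold. The call was lost in 7 of the 8 fits that left out a mouse, with an adjusted p of 0.137 without A468, 0.0647 without A470, 0.112 without A471 or A474, 0.0772 without A472, 0.0555 without A473 and 0.0785 without A475. Without A469 it was 0.0178. *Acaca* shares 23.6% of its 100-base words with the processed pseudogene *Gm5182* on chromosome 12, to which 97 to 153 counts per mouse were given, so part of its counts is uncertain.

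*Acacb* (chromosome 5, from 114146535 to 114250761, plus strand) encodes ACC2, the carboxylase at the outer mitochondrial membrane whose malonyl-CoA restrains fatty acid import. Its level was 10.4, 16.3, 10.4 and 10.3 in controls and 9.74, 9.83, 7.86 and 6.21 in *Usp39*-HKO mice. The genotypes did not overlap, but *Usp39*-HKO mice A469 and A470 lay close below 3 of the controls, and control A472 stood well above the other mice. The log2 fold change was −0.50 (SE 0.18, 95% interval −0.90 to −0.09, adjusted p = 0.0735 from edgeR, exact permutation p = 0.029). Without A472 it was −0.30, with an adjusted p of 0.179.

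*Thrsp* (chromosome 7, from 97412938 to 97417730, minus strand) encodes Spot 14, a small protein of lipogenic tissues that responds to thyroid hormone. It was at 4.36, 5.69, 3.38 and 5.46 in controls and at 9.61, 1.36, 2.39 and 0.81 in *Usp39*-HKO mice. Thus 3 of the 4 *Usp39*-HKO mice were below all controls, and A469 was above all of them. Counts ranged from 20 in A474 to 207 in A469. The log2 fold change was −0.43 (SE 0.59, 95% interval −1.72 to 0.85, adjusted p = 0.642 from edgeR). Without A469 it was −1.63, with an adjusted p of 0.0044. The within-genotype SD of *Thrsp* was 1.09 on the log2 scale, above that of 98.9% of the genes tested, whose median was 0.235.

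*Fasn* (chromosome 11, from 120805846 to 120824547, minus strand), which encodes fatty acid synthase, was at 8.53, 13.0, 8.27 and 8.59 in controls and at 9.06, 5.91, 6.79 and 5.88 in *Usp39*-HKO mice. Mouse A469 lay among the controls, and the other 3 *Usp39*-HKO mice were below them. The means were 9.60 ± 2.28 and 6.91 ± 1.49 (SD, n = 4 each, exact permutation p = 0.11), and the log2 fold change was −0.48 (SE 0.18, 95% interval −0.86 to −0.09, adjusted p = 0.0762 from edgeR). The value turned on a mouse in each genotype. Without A469 it was −0.61 (adjusted p = 0.0186), and without A472 it was −0.29 (adjusted p = 0.185).

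*Elovl6* (chromosome 3, from 129532355 to 129638495, plus strand), which elongates palmitate, was at 9.97, 8.80, 6.43 and 7.32 in controls and at 5.79, 12.3, 11.7 and 7.30 in *Usp39*-HKO mice. The *Usp39*-HKO mice held both the lowest and the highest values, A469 and A470. The log2 fold change was 0.19 (SE 0.23, 95% interval −0.31 to 0.69, adjusted p = 0.596 from edgeR).

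*Scd1* (chromosome 19, from 44394455 to 44407879, minus strand), the stearoyl-CoA desaturase, was at 184, 319, 153 and 123 in controls and at 350.2, 191, 216 and 226 in *Usp39*-HKO mice. All *Usp39*-HKO mice were above 3 of the controls, and control A472 was above all but A469. The means were 194 ± 86.3 and 246 ± 71.1 (SD, n = 4 each, exact permutation p = 0.26). The log2 fold change was 0.34 (SE 0.28), and its interval allowed a change from 0.824-fold to 1.94-fold (adjusted p = 0.427 from edgeR). Without A472 it was 0.68, with an adjusted p of 0.0539. Of its 100-base words 2.58% occur in other genes, most often in *Scd3* (1.76%) and *Scd2* (0.982%). A pseudogene, AC123853.3 (0.532%), and *Scd4* (0.348%) share fewer.

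In TMM-scaled FPKM, which is scaled to exon length, *Scd1* was far above the rest in both genotypes. In controls the order was *Scd1*, *Me1*, *Acly*, *Mlxipl*, *Acacb*, *Fasn*, *Elovl6*, *Srebf1*, *Acaca* and *Thrsp*. The ranges over the control mice were separate between *Scd1* and *Me1*, *Me1* and *Acly*, and *Mlxipl* and *Acacb*, whereas all other neighbours overlapped. In *Usp39*-HKO livers the first 4 genes kept their places with *Scd1*, *Me1*, *Acly* and *Mlxipl* separate from one another, and *Elovl6* followed in place of *Acacb*. Together the 10 genes took 0.126% to 0.241% of the counts of a mouse, of which *Scd1* alone took 44.8% to 71.8%. Without *Scd1*, the other 9 genes took a narrow share, from 0.0642% to 0.0801%.

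**Figure D3:**
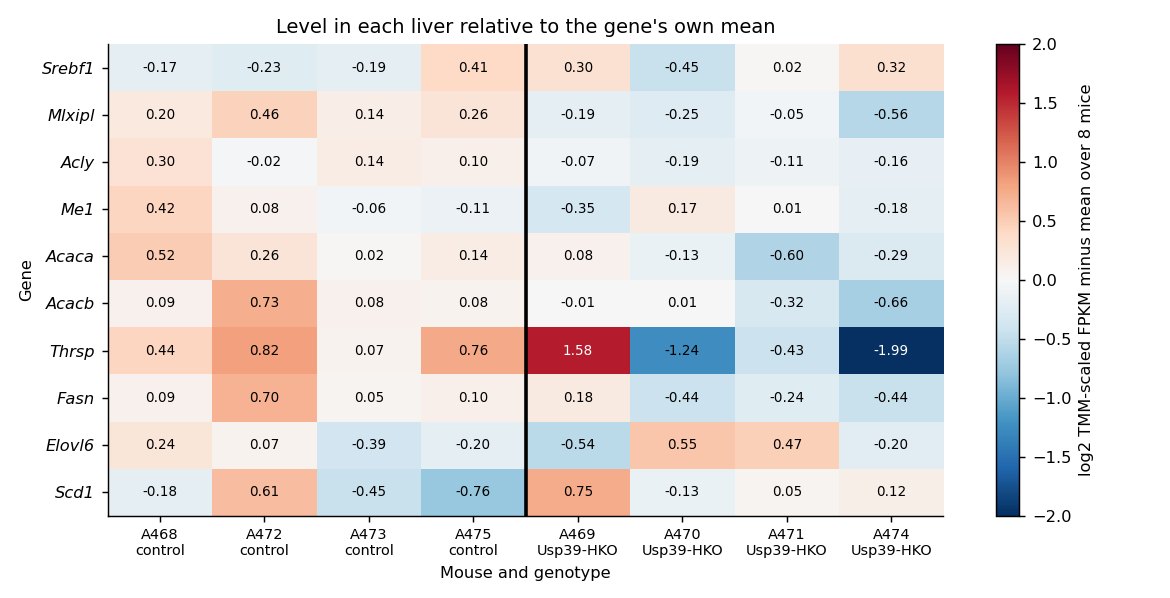
Log2 TMM-scaled FPKM of each gene (rows) in each liver (columns, 4 control mice on the left and 4 *Usp39*-HKO mice on the right), minus the mean of the gene over the 8 mice. *Thrsp* has the widest spread, from −1.99 in A474 to 1.58 in A469, and control A472 is above the mean in 8 genes.

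The members did not vary as a block between mice of a genotype. Control A472 was the highest control in 5 genes (*Mlxipl*, *Acacb*, *Thrsp*, *Fasn* and *Scd1*) but the lowest in *Srebf1* and *Acly*. Control A473 was the highest control in 0 genes and the lowest in 5. Among *Usp39*-HKO mice, A469 was highest in 5 genes (*Acly*, *Acaca*, *Thrsp*, *Fasn* and *Scd1*) and lowest in *Me1* and *Elovl6*, and A474 was lowest in 4 (*Mlxipl*, *Acacb*, *Thrsp* and *Fasn*). A474 also had the largest TMM factor. The within-genotype SD was above the median of all genes in 7 of the 10 members. Mice were fasted for the same time, and no label gives their litter, weight or the hour of collection.

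The tested genes whose pattern over the 8 mice was most like that of *Fasn* were *Ftsj3*, *Capn10* and *Acaa1a*, with root mean square differences of 0.084, 0.089 and 0.106 between centred log2 CPM. For *Srebf1* they were *Bbs1* (0.125), *Gse1* (0.144) and *Rbak* (0.154), and for *Scd1* they were *Eef1aknmt* (0.125), *Ccdc85b* (0.201) and ENSMUSG00000101841 (0.204). No member of the group was among them.

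The genes around the pathway were taken as 8 lists with 89 genes, of which 85 were tested. Of these 17 (20.0%) were lower and 9 (10.6%) higher in *Usp39*-HKO livers, against 11.6% and 10.9% of all genes tested. The share that was higher was thus close to that of all genes. The calls in each list below are to be read against the same shares of all genes, and no list was tested as a set. The median log2 fold change over the 85 genes was −0.16, against −0.0015 for all genes tested. On library totals without scaling 7 were lower and 19 higher. Over all genes tested, 1664 were lower and 1561 higher with TMM scaling, against 702 and 3509 on library totals. The direction of the majority thus depended on the scaling, over all genes as in the lists.

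**Figure D4:**
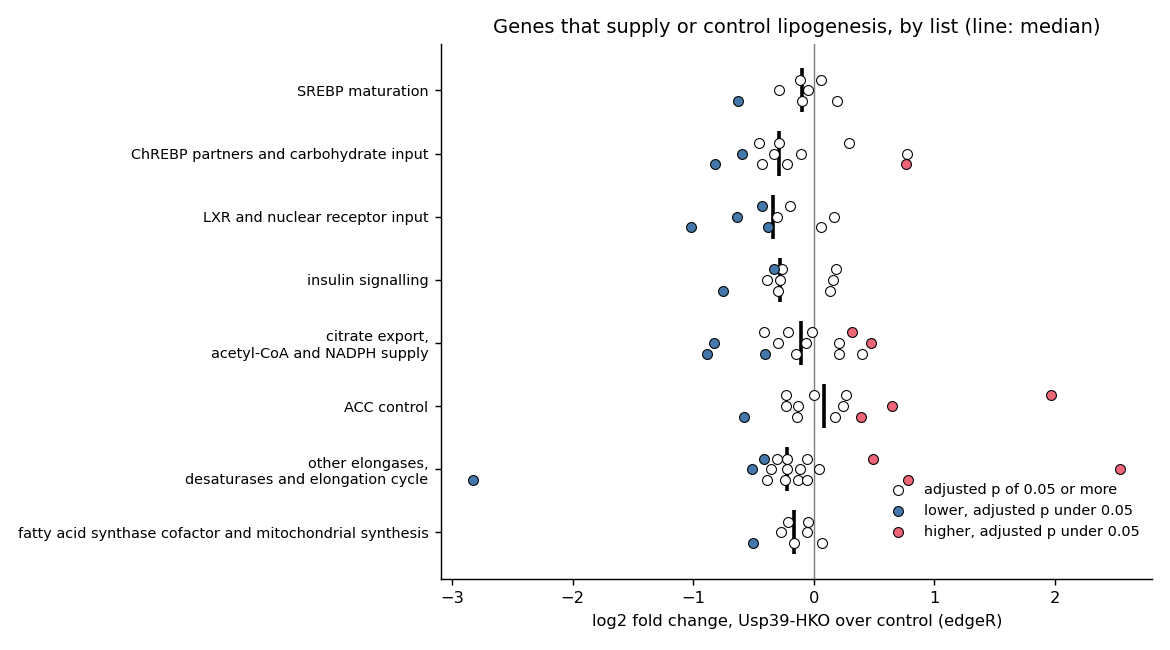
Log2 fold change (x axis, edgeR) of the 85 tested genes of 8 lists around lipogenesis, with each point a gene, filled where the adjusted p is under 0.05, and a vertical line at the median of the list. *Elovl3* (−2.82) lies farthest to the left, and *Elovl7* (2.54) and *Trib3* (1.97) farthest to the right.

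SREBP precursors are carried from the endoplasmic reticulum by the escort protein SCAP and held back by INSIG proteins. Of 7 genes of SREBP maturation, 1 was lower (*Scap*), none was higher and the median was −0.10. *Scap* was at 25.0 ± 1.37 in controls and at 16.1 ± 1.43 in *Usp39*-HKO livers (SD, n = 4 each), a log2 fold change of −0.63 (SE 0.10, adjusted p = 0.00209 from edgeR), with no overlap. A gene on the opposite strand overlaps 13.2% of its exon bases. *Insig1* and *Insig2*, the retention factors, had log2 fold changes of 0.19 and −0.05 (adjusted p = 0.421 and 0.889 from edgeR).

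Among 11 genes of ChREBP partners and carbohydrate input, 2 were lower and 1 was higher, with a median of −0.29. *Gckr*, a regulator of hepatic sugar metabolism, fell from 31.7 ± 2.74 to 18.0 ± 4.01 (SD, n = 4 each, log2 fold change −0.82, SE 0.15, adjusted p = 0.00324 from edgeR). The entry with the symbol *Pgm1* lies on chromosome 5, from 64092950 to 64128351, and belongs to the phosphoglucomutase family. It rose from 4.76 ± 0.17 to 8.10 ± 1.26 (log2 fold change 0.77, SE 0.14, adjusted p = 0.00321 from edgeR). *Pklr*, the liver pyruvate kinase and a well-known ChREBP target, was at 19.0 ± 2.79 in controls and 12.6 ± 3.23 in *Usp39*-HKO livers (log2 fold change −0.60, SE 0.18, adjusted p = 0.0316 from edgeR). The genotypes overlapped in *Pklr* (exact permutation p = 0.057), its call was lost without A468 (adjusted p = 0.0814), A470 (0.0743), A472 (0.0721), A474 (0.0835) or A475 (0.0612), and *Hcn3* on the opposite strand overlaps 22.0% of its exon bases. *Mlx*, the binding partner of ChREBP, did not pass, with a log2 fold change of −0.29 (adjusted p = 0.129 from edgeR).

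LXR is a nuclear receptor for oxysterols that induces *Srebf1* and sterol exporters. Of 8 genes of LXR and nuclear receptor input, 4 were lower (*Nr1h3*, *Abcg5*, *Abcg8* and *Nr0b2*) and none was higher, with a median of −0.34. *Abcg8*, which exports sterols into bile with *Abcg5*, fell from 36.4 ± 2.84 to 17.9 ± 3.88 (SD, n = 4 each, log2 fold change −1.02, SE 0.14, adjusted p = 0.0012 from edgeR). *Nr1h3*, which encodes LXRα, had a log2 fold change of −0.43 (SE 0.10, adjusted p = 0.0133 from edgeR).

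Of 9 insulin signalling genes, 2 were lower and none was higher, with a median of −0.28. *Insr*, the insulin receptor, fell from 24.7 ± 3.29 to 14.7 ± 1.79 (SD, n = 4 each, log2 fold change −0.75, SE 0.13, adjusted p = 0.00313 from edgeR). *Akt2*, the main hepatic AKT kinase downstream of it, had a log2 fold change of −0.33 (SE 0.094, adjusted p = 0.0265 from edgeR). *Irs1* and *Irs2*, the receptor substrates, had log2 fold changes of −0.26 and −0.28 (adjusted p = 0.371 and 0.375 from edgeR).

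Of 14 tested genes of citrate export, acetyl-CoA and NADPH supply, 3 were lower and 2 were higher, with a median of −0.11. *Acss2*, which makes cytosolic acetyl-CoA from acetate, fell from 8.73 ± 1.33 to 4.71 ± 0.44 (SD, n = 4 each, log2 fold change −0.89, SE 0.12, adjusted p = 0.0012 from edgeR), and genes on the opposite strand overlap 9.12% of its exon bases. *Cs*, the citrate synthase of mitochondria, rose from 26.0 ± 1.66 to 36.2 ± 4.09 (log2 fold change 0.48, SE 0.11, adjusted p = 0.0106 from edgeR). The mitochondrial citrate carrier *Slc25a1* had a log2 fold change of −0.30 (adjusted p = 0.17 from edgeR). Genes of the pentose phosphate pathway, which supplies NADPH, differed in direction, with *Pgls* lower and *Pgd* higher (log2 fold changes −0.41 and 0.31, adjusted p = 0.0127 and 0.0417 from edgeR).

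Acetyl-CoA carboxylases are switched off by AMPK, and 12 genes of ACC control were tested. Of these 1 was lower and 3 were higher, with a median of 0.09. *Trib3*, a pseudokinase known to recruit the ligase COP1 to ACC, was at 3.88, 5.86, 8.64 and 7.26 in controls and at 19.6, 16.4, 37.7 and 26.6 in *Usp39*-HKO mice. All *Usp39*-HKO mice were well above all controls, and the log2 fold change was 1.97 (SE 0.28, adjusted p = 0.00126 from edgeR). The AMPK subunits moved apart, with *Prkab1* and *Prkab2* higher (log2 fold changes 0.40 and 0.65, adjusted p = 0.026 and 0.0251 from edgeR) and *Prkag2* lower (−0.58, SE 0.13, adjusted p = 0.00944 from edgeR). Antisense genes overlap 14.5% of the *Prkag2* exon bases. The catalytic subunits *Prkaa1* and *Prkaa2* had log2 fold changes of 0.18 and −0.13 (adjusted p = 0.316 and 0.588 from edgeR).

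Of 17 tested genes among other elongases, desaturases and the elongation cycle, 3 were lower and 3 were higher, with a median of −0.22. *Elovl3*, an elongase of saturated and monounsaturated chains, was at 60.3, 30.2, 21.1 and 16.4 in controls and at 4.63, 2.34, 9.23 and 1.98 in *Usp39*-HKO mice. The ranges did not overlap, and the log2 fold change was −2.82 (SE 0.50, adjusted p = 0.00333 from edgeR). *Elovl7*, another elongase, rose from 0.56 ± 0.17 to 3.27 ± 2.08 (SD, n = 4 each, log2 fold change 2.54, SE 0.41, adjusted p = 0.00224 from edgeR). *Scd2*, a desaturase of the same gene cluster as *Scd1*, rose from 2.54 ± 0.51 to 4.34 ± 0.58 (log2 fold change 0.78, SE 0.16, adjusted p = 0.00599 from edgeR). *Tecr*, the reductase of the elongation cycle, fell, with a log2 fold change of −0.51 (SE 0.087, adjusted p = 0.00276 from edgeR). *Scd3* and *Scd4* did not pass the filter, with at most 12 and 2 counts in a mouse.

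The last list held the activator of fatty acid synthase and mitochondrial fatty acid synthesis, which is a separate pathway. Of its 7 tested genes, 1 was lower and none was higher, with a median of −0.16. *Oxsm*, the mitochondrial condensing enzyme, fell from 16.8 ± 1.86 to 11.8 ± 1.01 (SD, n = 4 each, log2 fold change −0.50, SE 0.11, adjusted p = 0.00846 from edgeR). *Olah* had 0 counts in all mice. On library totals without scaling, 7 of the 17 lower calls of the lists were kept (*Scap*, *Gckr*, *Abcg8*, *Insr*, *Acss2*, *Pcx* and *Elovl3*). The other 10 were lost, namely *Pklr* (adjusted p = 0.097), *Nr1h3* (0.208), *Abcg5* (0.421), *Nr0b2* (0.193), *Akt2* (0.44), *Pgls* (0.173), *Prkag2* (0.0766), *Tecr* (0.0528), *Fads6* (0.237) and *Oxsm* (0.0895). All 9 higher calls were kept on that scale. Single mice also ended calls. *Fads6* lost its call without any mouse but A469 and A470 (adjusted p = 0.0529 to 0.118 from edgeR). *Abcg5* lost its call without any mouse but A469 (adjusted p = 0.0644 to 0.131), and *Pgd* without any but A470 and A472 (0.0527 to 0.129). *Nr0b2* lost it without A470, A472, A473, A474 or A475 (0.0664 to 0.103), and *Akt2* without A471, A472, A473, A474 or A475 (0.0519 to 0.0754). *Prkab1* lost it without A468, A471, A473 or A474 (0.0579 to 0.0833), and *Prkab2* without A468, A470, A473, A474 or A475 (0.0591 to 0.0783).

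Markers of several cell types moved with genotype, and their part in the results above was not tested. For comparison, 11.6% of all genes tested were lower and 10.9% higher. Of 10 hepatocyte markers, 3 were lower (*Apob*, *Cps1* and *Serpina1a*) and none was higher. Their median log2 fold change was −0.32, against −0.35 for the 10 members, and a link between them was not tested. In TMM-scaled FPKM these markers summed to between 20900 and 24500 in controls, and to between 16100 and 23300 with *Usp39* deleted. *Alb* itself, which marks the tissue as liver, was at 8636 ± 675 in controls and at 7817 ± 1507 in *Usp39*-HKO livers (SD, n = 4 each, adjusted p = 0.626 from edgeR). Cholangiocyte markers summed to 28.9 to 31.1 against 63.3 to 241, controls first, and 4 of 4 tested were higher. The sum was 72.7 to 88.2 against 112 to 209 for stellate cell and fibroblast markers (7 of 9 higher), and 218 to 277 against 325 to 455 for macrophage markers (5 of 7 higher). For sinusoidal endothelium it was 104 to 113 against 88.6 to 99.9 (2 of 6 lower), for lymphocytes 4.73 to 6.10 against 5.02 to 6.31 (0 of 4 called), and for erythroid genes 404 to 836 against 146 to 343 (5 of 5 tested lower). Adipocytes are another cell type that expresses lipogenic genes strongly. Their markers were near 0, with *Lep* and *Retn* at 0 counts in all mice and a sum of at most 0.332. Skeletal muscle markers summed to at most 1.34, with *Ckm* and *Myh4* at 0 counts in all mice. Pancreas acinar markers reached a sum of 560 in control A475 and at most 2.11 in any *Usp39*-HKO mouse. Without A475, *Mlxipl* kept its call (adjusted p = 0.0343 from edgeR) and 1 member was called lower in all.

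**Figure D5:**
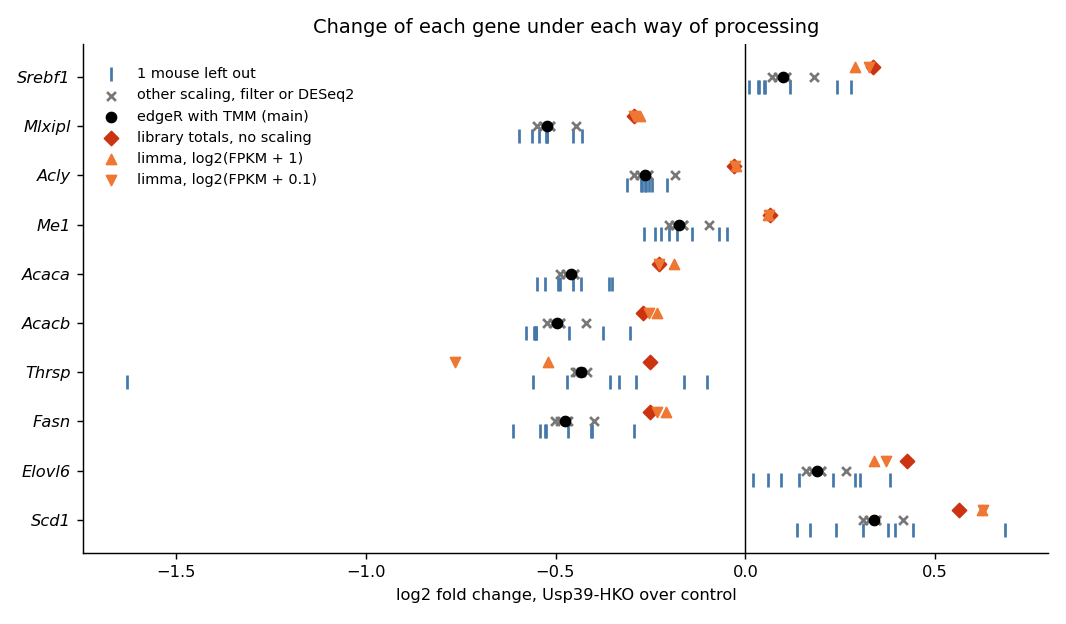
Log2 fold change (x axis) of each of the 10 genes in the main analysis, with other scalings, filters or tools, and with 1 of the 8 mice left out. Fits without a scaling step lie to the right of the main value in every gene but *Thrsp*, where the limma values lie to the left, and *Me1* alone crosses 0.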

How the data were processed

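Livers of 4 control and 4 *Usp39*-HKO mice were compared, grouped by the genotype in the labels. The authors extracted RNA with TRIzol, built NEBNext Ultra libraries and sequenced them as read pairs on a NovaSeq. Reads were aligned to mm10 with HISAT2 and counted per gene with featureCounts. The submitters' processing notes also name Trim Galore 0.6.1 and FastQC 0.11.9. The annotation release, the use of strand and the treatment of reads shared by several genes are not given in the sources used here. The authors deposited raw counts per gene and mouse. They also deposited FPKM, which were recomputed from the counts, lengths and totals to within 1.96e-05 percent. Columns of the authors' own DESeq2 comparison (a mean normalized signal, log2 fold change, its standard error and statistic as scores, and p-values) were deposited too and were not used. The table holds 55699 entries, of which 314 repeat a gene under another symbol and were read once, leaving 55385 identifiers. A floor of 3 counts was 0.288 to 0.349 CPM. It covers counting error only, since reads without molecular identifiers are not independent molecules.

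Genes that reached an FPKM of 0.5 in 4 or more of 8 mice were tested with edgeR 4.0.16 (R 4.3.3) on the counts, with TMM factors, the quasi-likelihood test and no covariates, and p-values were adjusted by Benjamini-Hochberg over all 14340 genes. The script was first tested on simulated counts. Levels are deposited FPKM divided by the TMM factor, with two-sided exact permutation tests. Coordinates and overlaps come from GENCODE vM21 on GRCm38, and start site windows from RefSeq. Named beside the members are, from each list, the gene with the largest rise and the gene with the largest fall among those called, *Pklr* as a gene of the lipogenesis panel of the study, the nearest patterns of *Srebf1*, *Fasn* and *Scd1*, and *Usp39*. Other genes were named after their values were seen, to describe their list. Members, lists and tests were chosen with earlier results of these data known. Replicate numbers follow the order of the samples and pair no mice. Alternatives were median-ratio factors, library totals, DESeq2 1.42.0, limma 3.58.1 on log2(FPKM + 1) and log2(FPKM + 0.1), no filter, filterByExpr, a mean FPKM of at least 5, deposited FPKM for levels, and each mouse left out in turn.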

Additional observations from a re-analysis of the deposited data

Results flagged for a closer look

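Levels of 43 genes (the 10 members, *Usp39*, the 13 list genes named by the rule and 19 other genes described above) were screened, in 86 groups of 4 mice, for a mouse far from the other 3 by Dixon's criterion at 95%, and 8 groups met it. Chance flags about 1 in 20 groups that are independent and chosen beforehand. The groups here share the same 8 mice, and some genes were named after their values were seen, so that rate is only a guide. *Acacb* was at 16.3 TMM-scaled FPKM in control A472 and at 10.3 to 10.4 in the other controls, and *Fasn* was at 13.0 in the same mouse and at 8.27 to 8.59 in the others. Both genes were thus nearly equal in the other 3 controls. *Scap* was at 23.0 in A472, below the 25.4 to 25.9 of the other controls. *Slc25a1* was at 89.4 in A472 and at 62.8 to 67.0 in the other controls. *Irs1* was at 5.68 in control A468 and at 3.13 to 3.44 in the other controls, and *Irs2* was at 11.5 in *Usp39*-HKO mouse A469 and at 18.0 to 19.1 in the other *Usp39*-HKO mice. *Srebf1* was at 9.31 in control A475 and at 5.98 to 6.23 in the other controls. *Alb* was at 7627 in A475 and at 8901 to 9054 in the other controls. A475 was also the control with pancreas acinar transcripts, whose part in these values was not tested.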

How the results depend on the processing

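The number of members called lower was 2, and it was 0 on library totals and in both limma fits, 1 at a mean FPKM of at least 5 (which leaves out *Acaca* and *Thrsp*), 4 without a filter and 1 to 4 with a mouse left out. It was 2 with median-ratio factors or filterByExpr and 3 in DESeq2. The number past the study's cutoff was 1, and it was 0 on library totals, in both limma fits and at a mean FPKM of at least 5, 2 with filterByExpr, 3 without a filter and 0 to 5 with a mouse left out, namely 0 without A474, 1 without A471 or A472, 2 without A470, 3 without A468 or A475, 4 without A473 and 5 without A469. No member was called higher in any of the 16 alternatives. Genes called among all tested numbered 3225, against 1595 at a mean FPKM of at least 5, where fewer genes were tested, and 1931 to 3510 with a mouse left out, with 1931 without A473, 2043 without A475 and 2094 without A474. Of the genes of the lists, 17 were lower and 9 higher. These numbers were 7 and 19 on library totals, 8 and 15 in limma with a pseudocount of 1, 8 and 16 with 0.1, and 12 to 21 and 6 to 10 with a mouse left out. Over all genes tested, lower and higher calls numbered 702 and 3509 on library totals. In limma they numbered 637 and 3031 with a pseudocount of 1, and 626 and 3061 with 0.1. Members with no overlap between genotypes numbered 3, and 0 on deposited FPKM, for which the share of all genes is not given here. *Me1* changed sign, to 0.066 on library totals, 0.061 in limma with a pseudocount of 1 and 0.063 with 0.1. The fits on library totals and in limma have no TMM step, and the median gene moves with it. Of 158 fits of a member under an alternative, 136 kept the direction and the side of the threshold, 13 lost the call, 6 gained one and 3 changed sign. *Mlxipl* was called in 13 of 16 alternatives and *Acaca* in 5 of 15. No paired analysis was possible because the labels give no pairing of mice. Genes with low counts, such as *Thrsp* (20 to 207), carry more counting error than the others.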
